A study of Mus musculus with 4 samples.

Results

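The cytosolic ribosome is built from ribosomal RNA and a large set of ribosomal proteins, named Rpl for the large subunit and Rps for the small one. To ask whether loss of the orphan nuclear receptor Gcnf (now Nr6a1) alters the mRNAs of these proteins, 45 ribosomal protein genes were followed across 4 whole-embryo arrays. A gene was a member if its annotated symbol was an Rpl, Rps, Rplp or Rpsa name and RefSeq did not class it as a pseudogene, and it was read through the probe set with the highest mean signal. The 45 members, 24 of the large and 21 of the small subunit, are among 18193 genes with a probe set of their own. Another 36 genes with such names have none. Of these, 28 are listed on probe sets that carry the symbols of several genes and enter only as an unnamed group, and 8 were matched to no probe set here. One array was hybridised per embryo, 2 wt and 2 homozygous Gcnf-/- mutants labelled E9.0, and the study's methods place collection between E9.0 and E9.5. All embryos were used whole, so the arrays average over every tissue, and the mutants lacked the receptor in every cell rather than in one tissue. The lines were kept on a C56BL/6 background (so spelled in the methods). Signals are robust multi-array average (RMA) values on a log2 scale, in which a difference of 1 is a 2-fold change. Differences are Gcnf-/- minus wt throughout.

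Ribosomal protein mRNAs are among the most abundant of growing cells, and nearly every protein is needed in the same number of copies per ribosome. Most of these mRNAs begin with a C followed by a run of pyrimidines, the terminal oligopyrimidine (TOP) motif, through which mTORC1 and the RNA-binding protein Larp1 set how actively they are translated. That layer of control acts after transcription and is not read by an array. Mutations that lower single ribosomal proteins give tissue-limited phenotypes in the mouse, in the axial skeleton, the pigment cells and the red cell lineage among others.

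The starts of 9 members are printed because later results turn on them: Rps25 and Rpl39l had the lowest differences, Rpl27a and Rps15 the highest, Rpl14 was next to the lowest pair, Rpl35 had probe sets that disagreed, and Rpl38, Rps7 and Rps6 have mouse mutants. Each line holds 30 bases of the sense strand from RefSeq (GRCm38.p6), 15 before the annotated transcription start and 15 from it on. Capitals mark bases that belong to an unbroken run of at least 8 C or T lying within 20 bases of the start, a TOP-like feature.
Rps25 (chr9:44407699-44407728, plus strand): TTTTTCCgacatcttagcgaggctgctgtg
Rpl39l (chr16:10170213-10170242, plus strand): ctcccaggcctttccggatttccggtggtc
Rpl35 (chr2:39005117-39005146, minus strand): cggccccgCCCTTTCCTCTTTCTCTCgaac
Rpl27a (chr7:109519180-109519209, plus strand): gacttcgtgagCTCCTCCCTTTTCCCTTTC
Rps15 (chr10:80292416-80292445, plus strand): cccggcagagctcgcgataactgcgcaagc
Rpl14 (chr9:120571502-120571531, plus strand): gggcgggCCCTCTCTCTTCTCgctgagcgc
Rpl38 (chr11:114668565-114668594, plus strand): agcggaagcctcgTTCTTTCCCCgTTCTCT
Rps7 (chr12:28635939-28635968, minus strand): gcttccggtttccacccacctacttccgct
Rps6 (chr4:86857353-86857382, minus strand): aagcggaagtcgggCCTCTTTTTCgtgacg
In Rpl35, Rpl27a, Rpl14, Rpl38 and Rps6 the run covers the annotated start. In Rps25 it lies wholly upstream, reaching back to at least 20 bases before it, and Rpl39l, Rps15 and Rps7 have no such run.

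A start of this kind was common among the members and rarer elsewhere. Of the 40 members with a RefSeq window, 19 (47.5%) held a run of at least 8 C or T within 20 bases of a start, against 18.4% of 27025 genes. Over the whole 300-base window, from 250 bases before the start to 50 after it, CCGGAAG, a binding sequence of ETS factors, was found on either strand in 20 of the 40 (50%), against 9.93% of all genes. CTTTCC was present in 21 (52.5%, against 29.3%), and it can lie inside the C and T runs. AAGATGGC, a YY1 sequence, was present in 3 members, Rpl13a, Rpl22 and Rps27 (7.5%, against 3.19%). TCAAGGTCA, the extended receptor site that Gcnf binds, was in 0 of the 40 windows and in 0.466% of all genes. These are matches of letters and not shown binding, and a window without a match says only that the letters are not within it.

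The members could be followed on all 4 arrays, with 2 reservations about the samples. All 5 Nr6a1 probe sets read higher in Gcnf-/- by 0.052 to 0.56 and none passed the adjusted p, so that the targeted gene does not check the genotype labels here. The 3 probe sets for 18S ribosomal RNA, the RNA of the small subunit, averaged 9.45 and 9.99 in wt and 10.83 and 10.74 in Gcnf-/-, whereas the poly-A RNA spikes averaged 9.61 and 10.33 against 10.38 and 10.30, lowest in wt replicate 1. The part of either in the results below was not tested.

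Ribosomal protein mRNAs were read near the top of the array's range, and in their brightest probe sets differed little between the genotypes. The mean signal was 14 or more for 33 of the 45 members (73.3%), against 0.511% of all genes, and the brightest probe set of the array reached 15.12. How far signals near that ceiling hold back differences was not tested. Among the 9 measured red cell markers, the globins Hba-x, Hbb-bh1 and Hbb-y, at 15.09, 15.01 and 14.68, differed by 0.092, 0.145 and 0.068. The others, at signals from 4.77 to 10.65, ranged from -0.139 for Hba-a1 to 0.98 for Alas2 (signal 10.44). Slc4a1, at 10.65, differed by 0.26. In the limma fit over all probe sets, 0 of 45 members were called at the study's thresholds (an adjusted p of 0.05 and a 2-fold change), where 0.544% of all genes were, and 0 at the adjusted p whatever the fold, where 1.4% were. At an unadjusted p under 0.05 there were 2 members, Rps25 and Rpl39l, both lower in Gcnf-/-, against a background of 23.8% of genes. These 2 were also the only ones with a difference of at least 0.2 in size (4.44% of members), against 27.4% of all genes. Both counts depend on the probe sets read, and the count by p also on the fit. With an intensity trend in the variance, 6 members (13.3%) had an unadjusted p under 0.05, against 28.4% of genes. Of these 6, 2 were lower and the rest higher. Without shared-sequence probe sets, 8 of the 24 members left (33.3%) were past 0.2 and 7 of 24 (29.2%) had an unadjusted p under 0.05, all 7 lower, against 27.8% and 22.8% of genes in that fit. With the lowest-p probe set of each gene the counts were 10 and 9 of 45 (22.2% and 20%), against 36.6% and 31.6% of genes. In whole-embryo RNA, fewer cells of one type and less RNA per cell cannot be told apart.

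The median difference of the members was 0.0057 and their median size 0.030, where the median size over all genes was 0.113. The 60 other genes with a mean signal of 14 or more had a median size of 0.058. The sign of the members' median is not settled, since it became -0.0040 when the arrays were quantile-normalised again and -0.016 when they were centred on their medians. It moved further with the choice of probe set, to -0.074 without shared-sequence probe sets, -0.030 with the lowest-p probe set and -0.021 when all probe sets of a gene were averaged. The intervals rest on 2 arrays a group and on the spread that limma shares across probe sets. The members' median within-group SD was 0.020, and their median limma SE was 0.068. Across the 33 members with a signal of at least 14, the 95% intervals of the single differences reached from -0.233 to 0.299. These outermost bounds, 0.851-fold and 1.23-fold, belonged to different genes, Rpl7 and Rps15, and are not a limit of detection. Over all members the median half-width of the intervals was 0.172. Changes within a gene's own interval were not excluded.

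**Figure D1:**
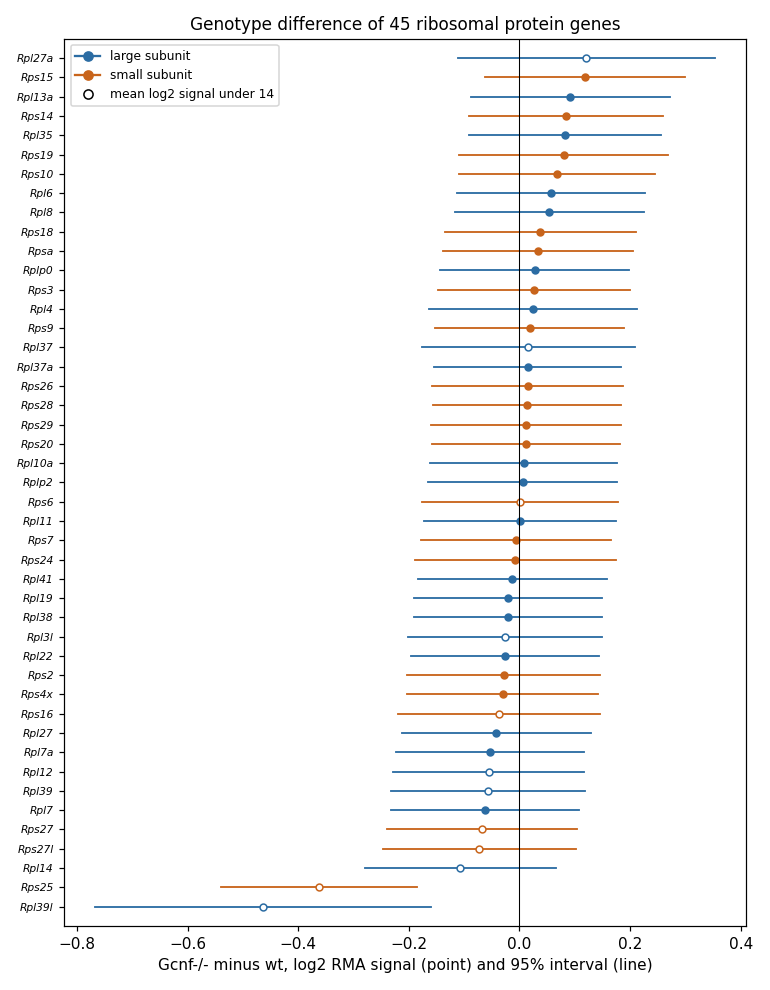
Difference between Gcnf-/- and wt in log2 RMA signal (x axis) for each of the 45 members (y axis, sorted), with limma's 95% interval as a line, 2 arrays a group. Points are blue for the large and orange for the small subunit and open where the mean signal was under 14. Only the intervals of Rpl39l (-0.77 to -0.16) and Rps25 (-0.54 to -0.18) lie wholly on 1 side of 0.

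Rps25, a protein of the small subunit head that certain viral RNAs need for internal initiation, stood at 11.26 and 11.20 in wt and at 10.86 and 10.88 in Gcnf-/-. Both mutant arrays lay below both wt arrays, by far more than either pair differed within itself. The difference was -0.36 ± 0.070 (limma SE, n = 2 each), or 1.29-fold lower, with a limma adjusted p of 0.0897, which misses the threshold. That call depends on the fit: with probe sets of mean signal under 6 left out the adjusted p was 0.0454, and with an intensity trend in the variance 0.0179. With any single array left out the difference lay between -0.39 and -0.33. Rps25 has 1 probe set of its own, so no other probe set could be set beside it.

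Rpl39l, a paralogue of Rpl39 best known from the testis that lines the peptide exit tunnel, read 6.36 and 6.47 in wt and 6.10 and 5.80 in Gcnf-/-. The mutant arrays were again the lower pair, although they differed from each other by about as much as the nearer one differed from wt. The difference was -0.46 ± 0.119, 1.38-fold lower, with a limma adjusted p of 0.132. Its mean signal of 6.19 was below the median probe set of the array (6.84), where unspecific hybridisation makes up more of the signal. Without Gcnf-/- replicate 1 the difference was -0.61 and without Gcnf-/- replicate 2 it was -0.31.

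The other 43 members lay between -0.107 for Rpl14 and 0.121 for Rpl27a. Rpl14, named here after its value was seen, read 10.83 and 10.82 in wt and 10.74 and 10.70 in Gcnf-/-, a difference of -0.107 with a 95% interval from -0.28 to 0.066. Rps15, whose tail reaches the decoding site, also named for its value, read 14.55 and 14.60 in wt and 14.73 and 14.67 in Gcnf-/-, a difference of 0.119 with an interval from -0.061 to 0.299. In both the groups did not overlap, but the intervals held 0. Counted over all members, both mutant arrays were below both wt arrays in 14 genes and above them in 14, of 45. Across all genes 30.4% were lower in this sense and 26.2% higher, so the members' counts were near the background.

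**Figure D2:**
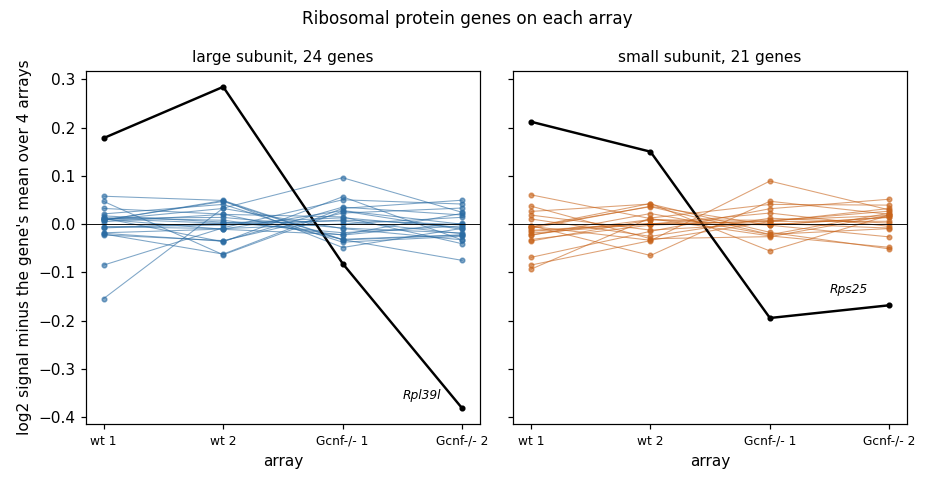
Log2 RMA signal of each member on each array, as the distance from that gene's mean over the 4 arrays (y axis), with the large subunit on the left (24 genes) and the small subunit on the right (21 genes). Lines join the 4 values of 1 gene and imply no order of arrays. Rpl39l and Rps25 (black) leave the bundle, whereas the other members stay close to 0, the farthest being Rpl27a in wt replicate 1 (-0.154).

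Among large subunit proteins, those of the stalk, which recruits the elongation factors, moved little. Rplp0, the stalk base, read 14.72 and 14.73 in wt and 14.77 and 14.74 in Gcnf-/- (0.028, interval -0.14 to 0.20). Rplp2, one of the acidic stalk proteins and one of the 3 brightest members, differed by 0.0057. Rpl12, which sits beside the stalk base, differed by -0.056 from a signal of 10.49. Of the proteins near the exit tunnel, 4 of 8 listed genes had a probe set of their own, and their differences were 0.082 for Rpl35, 0.024 for Rpl4, -0.021 for Rpl19 and -0.057 for Rpl39. Rpl11, which joins the 5S RNA and Rpl5 in the particle that binds Mdm2, read 14.18 and 14.15 in wt and 14.14 and 14.19 in Gcnf-/-, with overlapping groups and a difference of 0.00062. The other brightest members were Rpl41 (15.10 on average, difference -0.013), the smallest ribosomal protein, and Rpl37a (14.99, difference 0.015).

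Of 7 genes picked here for a known mouse mutant, a selection and not a full count, 6 could be read singly. Of the 6, 0 were called. Over all genes 0.544% were called, so 0 among so few says little. Rpl38, the gene of the Tail short mutant with homeotic changes of the axial skeleton, read 14.68 and 14.67 in wt and 14.65 and 14.66 in Gcnf-/-. Its groups did not overlap, yet the difference of -0.021 was small beside its interval of -0.19 to 0.15. Rpl27a, mutated in a mouse with ataxia and dark foot pads, read 11.57 and 11.76 in wt and 11.82 and 11.75 in Gcnf-/-, with overlapping groups. Its difference of 0.121, the highest of all members, came with the interval -0.11 to 0.35, and wt replicate 1 was the low array.

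On the small subunit, Rps19, the gene most often mutated in Diamond-Blackfan anaemia, read 14.24 and 14.35 in wt and 14.37 and 14.37 in Gcnf-/- (0.080, interval -0.11 to 0.27). Here too wt replicate 1 was the lowest array. Rps20, like Rps19 the site of a dark-skin mutation in the mouse, differed by 0.012 in its brightest probe set. Its other probe sets, at signals of 13.92, 7.69 and 7.06, differed by 0.00102, -0.246 (interval -0.48 to -0.011) and -0.136 (interval -0.46 to 0.19). The direction of Rps20 therefore depends on the probe set. Rps7, mutated in a mouse with skeletal and pigment defects, differed by -0.0065. Rps6, the substrate of S6 kinase, read 11.14 and 11.18 in wt and 11.14 and 11.18 in Gcnf-/-, the closest match of the small subunit, with a difference of 0.0012 and an interval from -0.18 to 0.18. Of 8 listed proteins of the decoding site and the mRNA channel, 5 had a probe set of their own. Rps15 was given above, and Rps3, Rps26, Rps28 and Rps2 differed by 0.026, 0.015, 0.013 and -0.029. Rpsa, the laminin-receptor protein of the small subunit surface, differed by 0.034.

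Differences lay around 0 in both subunits. The median difference was -0.0061 in the 24 large subunit genes, with 12 below and 12 above 0, and 0.012 in the 21 small subunit genes, with 8 below and 13 above. The mean of the large minus the mean of the small subunit members was -0.491 and -0.492 on the wt arrays, and -0.492 and -0.519 on the Gcnf-/- arrays. The shift of -0.014 between the genotypes was about the size of the spread between arrays of a group (pooled SD 0.0136) and rested on Gcnf-/- replicate 2. With 2 arrays a group an exact permutation test cannot give a two-sided p below 0.333, and none was run. Without the 2 members of signal under 6 (Rpl3l and Rps16), the large minus small median was -0.012, where it had been -0.018. Its sign turned with the choice of probe set, to 0.052 without shared-sequence probe sets and 0.013 with the lowest-p one.

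Paralogues with restricted expression were listed with their parent genes, and 0 of the 11 measured were called, against 0.544% of all genes. Of the 11, 8 had both mutant arrays below both wt arrays and 1 had both above, where 30.4% and 26.2% of all genes did. Rpl39 read 8.14 and 8.18 in wt and 8.09 and 8.12 in Gcnf-/- (-0.057, interval -0.23 to 0.12), a smaller difference than that of Rpl39l, though the difference between them was not tested. Rps27 and Rps27l, the latter a p53-responsive copy, differed by -0.068 and -0.072, and in both the mutant arrays were the lower pair. Rpl22 differed by -0.026 and its paralogue Rpl22l1 by -0.012. Rpl7 and Rpl7l1 differed by -0.062 and -0.18. Rpl3l, the heart and skeletal muscle form, read 3.86 on average and Rps16 read 4.01, both below the lower quartile of all probe sets (5.18), so their small differences (-0.025 and -0.037) say little about the transcripts.

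Both X-linked members, Rps4x and Rpl39, were read in embryos that were not all of one sex. Xist, transcribed from the inactive X of females, was 13.11 in wt replicate 1 and between 6.44 and 6.68 in the other 3. Rps4x read 14.60 in that embryo and 14.64, 14.59 and 14.60 in the others. The difference of Rps4x was -0.030 with all arrays and -0.051 without wt replicate 1, and that of Rpl39 became -0.077. Rps4l, which matches the name pattern but is classed as a transcribed pseudogene, was kept out of the members and differed by 0.068.

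What a single probe set per gene leaves out is how the others behaved. The 45 members have 99 probe sets in all, and 22 members have only 1. Of the 23 with several, 10 had every probe set on the same side of 0. The 69 probe sets with a mean signal of at least 12 had a median difference of 0.016, with 1 of them past 0.2 in size, a Rpl22 probe set (11.96 and 11.99 in wt, 12.20 and 12.20 in Gcnf-/-, difference 0.23, limma adjusted p 0.161). The 25 with a signal between 6 and 12 behaved otherwise, with a median of -0.107, 19 below 0 and 11 past 0.2 (44%). Over all 26444 probe sets in that range of signal the median was -0.011, with 13932 below 0 and 30.5% past 0.2. None of the 99 passed the adjusted p, which 439 of all 45037 probe sets did. Counted by gene, the 33 members with a signal of at least 14 had a median of 0.013 with 22 above 0, and the 12 under 14 a median of -0.056 with 9 below 0.

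Within single genes, the dimmer probe set was usually the lower one. Of the 25 dim probe sets, 9 (36%) had an unadjusted p under 0.05 with lower signal in Gcnf-/-, where 13.3% of all probe sets in that range of signal did. They belonged to 8 members. Rps20 was among them, as were Rps25 and Rpl39l, which have 1 probe set each and allow no comparison within the gene. Of the 25, 16 belong to the 10 members that also have a bright probe set. The clearest case was Rpl35, a protein at the tunnel exit. Its 5 bright probe sets differed by 0.024 to 0.17, whereas a sixth read 7.41 and 7.25 in wt and 6.56 and 6.76 in Gcnf-/-, a difference of -0.67 ± 0.104 with a limma adjusted p of 0.0641. The direction of Rpl35 therefore depends on the probe set. Rpl41 was below 0 in every probe set, but by unlike amounts. Its brightest read 15.12 and 15.11 against 15.11 and 15.08. A dimmer one read 9.67 and 9.65 against 9.05 and 9.20 (-0.54, adjusted p 0.0623 by limma).

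In Rps9, a small subunit protein of the mRNA entry site, the direction again depended on the probe set. Its difference was 0.018 in the probe set that stands for the gene. A dim one gave -0.41 (10.26 and 10.18 against 9.79 and 9.83). For Rps10 the values were 0.068 and -0.36. For Rps24 they were -0.0073 and -0.38, both below 0, and its other dim probe set differed by 0.047. Altogether 10 members had both a bright and a dim probe set. In 9 of them the median of the dim ones was below that of the bright ones, and in 7 every dim one was below every bright one, the exceptions being Rps24, Rps3 and Rps4x. This is a description made after the values were seen, with no test. The suffix _at marks probes designed to match 1 transcript alone, and the 30 such plain probe sets had a median of -0.074 with 22 below 0. The 69 with the suffix _x_at, _s_at or _a_at, for probes that also match other transcripts of the gene or of other genes, had a median of 0.015 with 25 below 0. Ribosomal protein genes have many near-identical processed copies in the genome, so probe sets of shared sequence can read several transcripts. Where each probe set lies in its transcript was not analysed here. Signal and suffix move together among these probe sets, so their parts cannot be told apart.

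**Figure D3:**
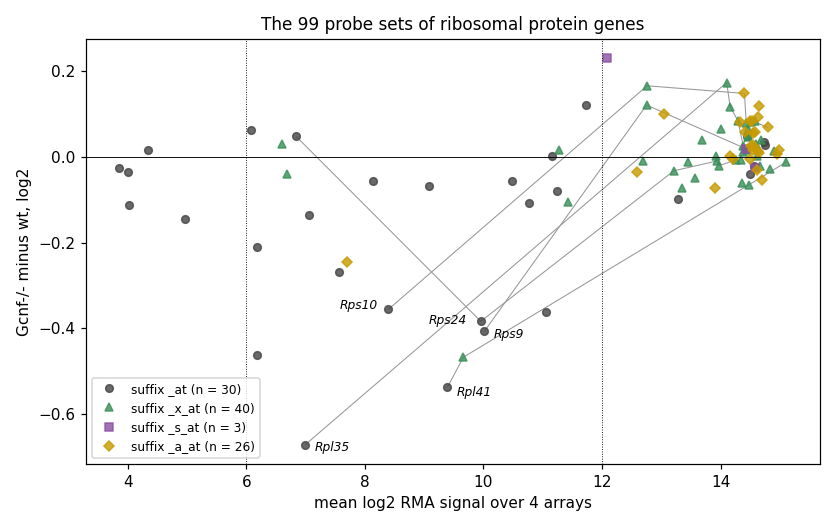
Each of the 99 probe sets of the 45 members by its mean log2 RMA signal over 4 arrays (x axis) and its difference between Gcnf-/- and wt (y axis, log2), with the annotation suffix as colour and shape. Thin lines join the probe sets of Rpl35, Rpl41, Rps9, Rps10 and Rps24, and dotted lines mark signals of 6 and 12. Above 12 the points lie around 0, and most of those from 6 to 12 lie below it.

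Probe sets annotated with several genes, at least 1 of them a ribosomal protein gene, were described as a group after the data had been seen. They numbered 110, had a median difference of -0.0028, and 0 were called, against 172 of all 45037 probe sets. The same division by signal appeared: the 81 with a signal of at least 12 had a median of 0.011 and the 23 between 6 and 12 a median of -0.078, with 18 below 0. These probe sets cover genes that the 45 members leave out.

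Genes around the ribosomal protein genes were compared by lists. Of 17 other TOP mRNAs, which encode elongation and initiation factors among others, 16 were measured, with a median of -0.0097. Of the 16, 0 were called, against 0.544% of all genes. Eef1a1, the main elongation factor, read 14.94 and 14.91 in wt and 14.93 and 14.93 in Gcnf-/-. The lowest of the list was Eef1d at -0.22 and the highest Eif3f at 0.142. Thus 1 of the 16 (6.25%) was past 0.2 in size, close to the members' share.

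Among 15 measured genes that control TOP mRNAs, 1 was called and higher, against 0.544% of all genes. Ddit4, whose product restrains mTORC1 under stress, rose from 9.97 and 10.46 in wt to 12.50 and 12.50 in Gcnf-/-, a difference of 2.29 ± 0.167, or 4.89-fold, with a limma adjusted p of 0.0174. Both mutant arrays were above both wt arrays by more than the wt arrays differed. The difference was 2.04 to 2.54 with any array left out, but the call was lost in all 4 of those fits (limma adjusted p 0.0517 to 0.206) and with the replicate block (0.160). Mtor itself (-0.30), Larp1 (-0.25) and Eif4e (-0.19), the kinase, the TOP-binding repressor and the cap-binding factor, had lower signal in both mutants, and their limma adjusted p-values (0.125, 0.165 and 0.216) missed the threshold. Larp4 (-0.29) was also lower in both mutants. Eif4ebp1 (0.20) and Rheb (0.056) had higher signal in both, and Deptor differed by 0.32 with overlapping groups. Of the 15 genes, 6 had both mutant arrays below both wt arrays and 3 had both above, where 30.4% and 26.2% of all genes did. The median of the list was -0.035. Kinase activity and translation were not measured.

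The dedicated chaperones and surveillance factors of ribosomal proteins had a median of -0.178 over 8 genes. Of these, 0 were called, against 0.544% of all genes. Heatr3, which carries Rpl5 to the nucleus, read 10.37 and 10.37 in wt and 9.92 and 9.97 in Gcnf-/- (-0.42, limma adjusted p 0.0678). Grwd1, the chaperone of Rpl3, differed by -0.36 and Ltv1, a small subunit assembly factor, by -0.27. Of the 8 genes, 5 had both mutant arrays below both wt arrays, these 3 among them, and 2, Zfp622 (0.067) and Aamp (0.066), had both above, where 30.4% and 26.2% of all genes did. The 73 genes of mitochondrial ribosomal proteins, a list added later, had a median of -0.058, with 45 below 0. Again 0 were called, against the same 0.544%. Ribosomal proteins that fall outside the name pattern gave 0.077 for Fau and -0.012 for Rps3a1.

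**Figure D4:**
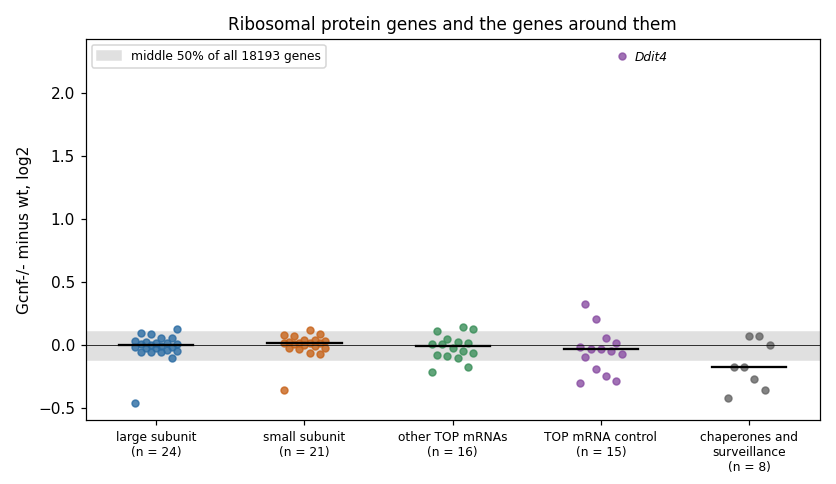
Difference between Gcnf-/- and wt in log2 RMA signal (y axis) for the genes of 5 groups (x axis), each point a gene and each bar the median, with the grey band holding the middle 50% of all 18193 genes. The 24 large and 21 small subunit genes lie mostly within the band, and Ddit4 at 2.29 stands apart.

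Markers of tissues that a whole embryo or its membranes could contribute are given beside the results. Heart muscle markers lay above wt in 9 of 9 genes (median 0.42, summed log2 level 15.04 to 15.24 in wt and 15.47 to 15.53 in Gcnf-/-). Primitive red cell markers lay above wt in 8 of 9 (median 0.26, summed 16.52 to 16.57 against 16.64 to 16.71), and yolk sac endoderm markers lay below wt in 6 of 8 (median -0.148, summed 16.72 to 16.85 against 16.55 to 16.73). Of 9 markers of the embryo proper 5 lay above wt (median 0.164, summed 13.10 to 13.16 against 13.17 to 13.19). Of 4 measured markers of trophoblast and decidua 3 lay above wt (summed 9.97 to 10.17 against 10.58 to 10.82). The brightest were Dcn (signal 9.56, difference 0.93) and Hand1 (8.99, 0.25). Prl8a2, at 5.22, differed by -0.25 with overlapping groups. The trophoblast gene Tpbpa (difference 0.101, overlapping groups) read 4.11, below the array's lower quartile. None of these lists had a called gene, where 0.544% of all genes were called. No marker was listed at 0, since RMA gives every probe set a signal. The study reports, from earlier work, that embryos without the receptor develop more slowly. Somite numbers of these embryos were not given in the sources used here, so stage and genotype cannot be told apart. The part of tissue makeup or stage in the members' values was not tested.

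Members with and without a TOP-like start had similar medians. The 19 members with a C and T run near the start had a median difference of 0.0012, with 9 below and 10 above 0, and the 21 without one a median of 0.00062, with 10 below and 11 above. The ETS sequence CCGGAAG was sought in the whole 300-base window, beyond the 30 bases printed. Among the genes with printed starts, the windows of Rps25, Rpl39l, Rpl35, Rpl27a, Rpl38, Rps7 and Rps6 held it. The medians were 0.00092 with the sequence and 0.0001 without it. No test was run on these splits. Rps25 and Rpl39l, the lowest members, share CCGGAAG and differ in the run at the start.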

How the data were processed

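The authors deposited log2 signal values of 4 Affymetrix mouse arrays (2 wt, 2 Gcnf-/-, whole embryos, 150 ng total RNA each), made with RMA, which corrects the background, quantile-normalises the arrays and summarises each probe set. The sources used here do not give the RMA version. A shift shared by most transcripts is removed by the quantile step. The main results use the values as deposited.

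Of 45101 probe sets, 64 controls were left out of testing. The remaining 45037 were fitted by genotype alone in limma 3.58.1 (R 4.3.3; lmFit, then eBayes), and p-values were adjusted over all of them by Benjamini-Hochberg. SEs and intervals are limma's moderated ones (prior SD 0.0849, 3.16 prior degrees of freedom) and draw on the spread shared across probe sets. Replicates were taken as separate embryos from the methods. The number of arrays limits the precision. The platform annotation named 34945 probe sets with a single symbol, of which 34741 matched RefSeq by Entrez identifier. Genes to be named were called members (0 here), the 3 brightest and 3 dimmest, those of the paralogue, stalk, mutant and 5S lists, and other lists' genes when called. The extremes Rpl14, Rps15, the members named for their probe sets, and uncalled genes of other lists were named after their values were seen. The members and lists were chosen with earlier results of these data known.

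Starts came from RefSeq windows (32851 windows of 27025 genes), and a gene held a sequence if any of its windows did. The fit was tested on simulated arrays of 45037 probe sets for this comparison: of 100 planted at a log2 size of 1, 80 passed the adjusted p, of 100 at 2 all 100 did, and 7 of 44837 unchanged ones did. Both sizes exceed every member's difference in the main fit, the largest being -0.46 for Rpl39l. Recovery at the members' own sizes is not shown by these counts. Replicate numbers did not pair the samples (correlation of deviations 0.0583). The alternatives were the replicate block, each array left out, signal filters at 6 and 12, repeated normalisation, median centring, an intensity trend, robust eBayes, leaving out shared-sequence probe sets, and reading a gene by the mean of its probe sets or by the one with the lowest p. Protein sequences were not used here.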

Additional observations from a re-analysis of the deposited data

Results flagged for a closer look

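The 18S ribosomal RNA probe sets, which are Affymetrix controls outside the tests, read higher in Gcnf-/- by 1.06 on the log2 scale (pooled SD 0.274), in both mutant arrays against both wt arrays. The difference was 1.13 for the 3' probe set, 0.72 for the middle and 1.33 for the 5' one. The poly-A spikes differed by 0.37 with a pooled SD of 0.364. The mean signal of the 45 ribosomal protein genes differed by -0.012 between the same arrays. The cause was not tested.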

How the results depend on the processing

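None of the 45 genes passed the adjusted p in the main fit. Rps25 alone did with probe sets of signal under 6 left out (1 gene, adjusted p 0.0454), with an intensity trend (1 gene, 0.0179) and with the mean of each gene's probe sets (1 gene, 0.0454), and its limma adjusted p ranged up to 0.386 over the other fits. With the replicate block, although the numbers do not pair the embryos, 0 of the 172 and of the 439 probe sets called over the whole array (at the study's thresholds and whatever the fold) stayed called, 0 members were called, and the adjusted p of Rps25 was 0.198. With an array left out those counts were 0 to 9 each. They were 4 and 427 with signals under 12 left out, 1497 whatever the fold with those under 6 left out, 824 with normalisation repeated, and 260 and 2694 with the intensity trend.

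The members' median difference (0.0057) was -0.0034 to 0.0046 with an array left out, 0.013 over signals of at least 12, -0.0040 with normalisation repeated, -0.016 with median centring, -0.074 without shared-sequence probe sets (24 members left), -0.021 with the mean of probe sets and -0.030 with the lowest-p one. Over probe sets it was 0.016 at signals of at least 12, -0.106 under 12 and -0.0028 in those with several symbols, divisions chosen after seeing the data. The large minus small median (-0.018) was -0.039 to -0.0042 with an array left out, 0.052 without shared-sequence probe sets and 0.013 with the lowest-p one. Rpl35 turned to -0.67 without shared-sequence probe sets and with the lowest-p one, and to -0.032 with the mean. Which sequence each probe set reads was not tested. Signals near the array's floor limit Rpl3l, Rps16 and Rpl39l.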
